A study of Rattus norvegicus with 415 samples.

Results

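The 9 genes described here form the core of the circadian clock and its closest outputs, and they were taken by identifier from 18358 genes measured by RNA-seq in adipose tissue of outbred rats. They are Arntl (ENSRNOG00000014448), Clock (ENSRNOG00000002175), Per1 (ENSRNOG00000007387), Per2 (ENSRNOG00000020254), Per3 (ENSRNOG00000018413), Cry1 (ENSRNOG00000006622), Dbp (ENSRNOG00000021027), Nr1d1 (ENSRNOG00000009329) and Nr1d2 (ENSRNOG00000046912). The identifiers were paired with symbols by a list made for this work and not by the deposited table. All 9 were present and passed the filter on low values that kept 16131 genes.

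The samples were libraries from rats aged 17 weeks, and all of them enter every result unless said otherwise. The labels put them in a single group with no treatment or control. The study used such data to find genes whose expression is linked to metabolic traits. Sex, diet, fat depot and the time of day at which tissue was taken are not given in the sources used here. Each sample title carries a number, called the title number here, and a suffix, and the labels explain neither; the numbers fell into 3 blocks separated by gaps above 500. Block 1 (numbers 57215 to 59114) held 39 samples (9.40%), block 2 (60213 to 63056) 55.9% and block 3 (63906 to 64305) 34.7% of all samples. In addition, 89 title numbers stood on more than 1 sample. Nothing in the labels says that samples came from separate animals, so every p-value measures the spread between these samples only. Most tests also treat the samples as independent. Samples of a title number, and neighbours along the numbers, had like levels of several clock genes (below). The p-values over all samples can therefore be too small. In whole tissue, fewer cells of a type and less RNA per cell cannot be told apart.

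In textbook accounts the clock is a feedback loop of transcription. The proteins of Arntl (also called Bmal1) and Clock bind together to E-box sequences and switch on the Per genes, Cry1, Dbp, Nr1d1 and Nr1d2. The PER and CRY proteins then inhibit that pair, while the nuclear receptors encoded by Nr1d1 and Nr1d2 (REV-ERB alpha and beta) repress Arntl and Cry1 through a short element that ROR receptors also bind. DBP is a transcription factor that acts on D-box sequences. In adipose tissue the clock is known to time lipid storage and lipolysis, and the positive-arm gene Arntl peaks at another time of day than its targets.

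The sequences of the loop are shown for the 3 genes whose stretch of 250 bases before the start of transcription held a motif of the clock. They come from RefSeq on the build GRCr8, which had 10 entries for 8 of the 9 genes, all but Cry1. The motifs searched, on both strands, were CACGTG (E-box), CACGTT (a variant E-box), TAGGTCA and TAGGTTA (the REV-ERB and ROR element and a variant) and TTATGTA (D-box), with no overlap among the matches. Capitals mark the matches, and the bases run 5′ to 3′ on the gene's strand.
Arntl, listed as Bmal1, chr1:176766078-176766327, plus strand: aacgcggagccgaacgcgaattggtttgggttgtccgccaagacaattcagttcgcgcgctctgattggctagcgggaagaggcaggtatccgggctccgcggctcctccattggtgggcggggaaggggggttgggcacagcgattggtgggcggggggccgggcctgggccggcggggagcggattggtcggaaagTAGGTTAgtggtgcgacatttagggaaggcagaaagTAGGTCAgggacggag
Per2, chr9:99496994-99497243, minus strand: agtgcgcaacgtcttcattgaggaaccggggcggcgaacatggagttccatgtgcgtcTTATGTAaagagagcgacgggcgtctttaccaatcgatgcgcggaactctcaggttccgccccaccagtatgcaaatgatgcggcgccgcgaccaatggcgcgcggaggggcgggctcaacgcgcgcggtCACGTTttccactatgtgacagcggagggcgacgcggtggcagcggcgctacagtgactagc
Nr1d1, first entry, chr10:84231813-84232062, minus strand: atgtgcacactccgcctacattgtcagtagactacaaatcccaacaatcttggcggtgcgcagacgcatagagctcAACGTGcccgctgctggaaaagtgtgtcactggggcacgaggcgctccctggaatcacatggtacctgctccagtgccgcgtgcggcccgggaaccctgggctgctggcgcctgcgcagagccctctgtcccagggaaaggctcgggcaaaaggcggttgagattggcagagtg
Nr1d1, second entry, chr10:84229455-84229704, minus strand: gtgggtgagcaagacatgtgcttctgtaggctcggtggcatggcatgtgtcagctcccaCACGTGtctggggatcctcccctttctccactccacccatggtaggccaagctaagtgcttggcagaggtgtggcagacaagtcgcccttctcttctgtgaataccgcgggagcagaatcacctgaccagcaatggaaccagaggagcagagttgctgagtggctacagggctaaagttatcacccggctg

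Arntl held both forms of the REV-ERB and ROR element, TAGGTTA beginning 52 bases and TAGGTCA 16 bases before the start. Per2 held the variant E-box at 62 bases before its start, and the D-box at base 59 of the printed run. The first Nr1d1 entry held the variant E-box on the opposite strand, printed as AACGTG, at base 77 of the run, and the second held the E-box CACGTG at base 60. Of 33469 promoters of this length, 5.59% held CACGTG, 4.07% CACGTT, 2.26% TAGGTCA, 1.42% TAGGTTA and 2.57% TTATGTA. A match is a run of letters and not a measured binding site. The windows of Clock, Per1, Per3, Dbp and Nr1d2 held none of these letters, which says nothing about sites elsewhere.

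Levels are given first as FPKM, a read count divided by gene length and by the authors' factor for each sample, so that genes of different length can be compared. Arntl, which encodes the partner of CLOCK in the activating pair, ran from 7.71 to 49.6 FPKM over all samples with a median of 34.8. Most samples lay near the top of that range, and a tail of low samples gave log2 values a skew of -1.83. Clock itself, the other activator, ran only from 30.5 to 47.5 FPKM with a median of 38.3. No other gene of the 9 was as even, and its coefficient of variation was 6.19% against 24.6% for Arntl.

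Among the inhibitors, Per1, which hormonal and feeding signals also induce, had the highest median of the 9 at 45.03 FPKM and ran from 11.2 to 73.8. Per2, its close relative, was lower, from 2.94 to 27.3 FPKM with a median of 9.34. Per3, the third Period gene, ran from 7.66 to 41.7 FPKM with a median of 17.9. Cry1, which encodes the cryptochrome that inhibits the activating pair, was the lowest of the 9, from 1.90 to 14.1 FPKM with a median of 5.48.

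Among the outputs and repressors, Dbp ran from 8.67 to 85.8 FPKM with a median of 19.1, and its high samples formed a long upper tail with a skew of 0.95 on the log2 scale. Nr1d1 ran from 6.77 to 65.5 FPKM with a median of 22.96. Nr1d2, the related receptor, ran from 13.2 to 54.5 FPKM with a median of 28.5. The order of the medians was thus Per1, Clock, Arntl, Nr1d2, Nr1d1, Dbp, Per3, Per2 and Cry1. The middle 50% of samples overlapped between every pair of neighbours in that order except Per3 (14.8 to 22.7 FPKM) and Per2 (6.93 to 11.96 FPKM).

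**Figure D1:**
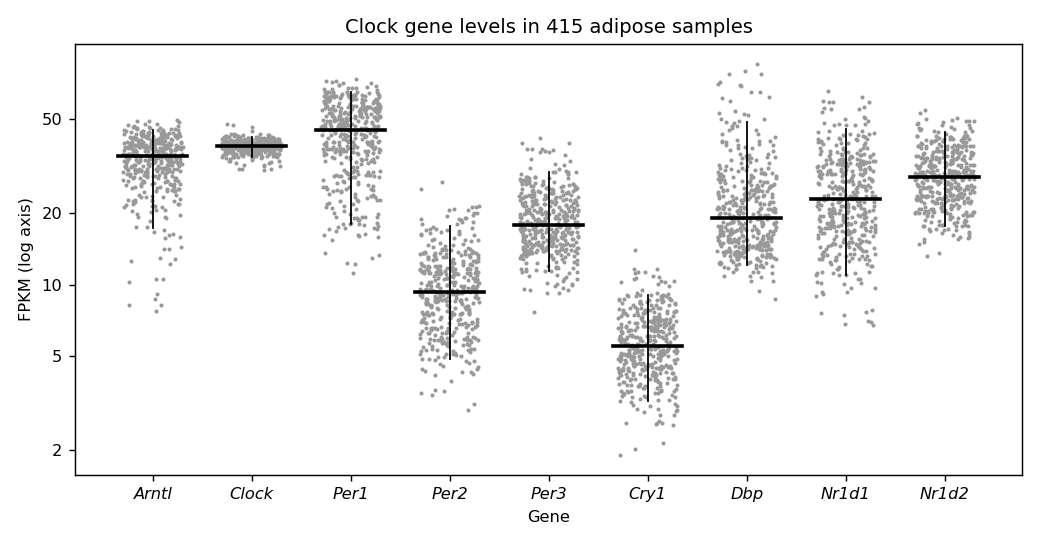
FPKM of the 9 clock genes on a log axis, 1 grey point for each sample, with the median as a horizontal bar and the 5th to 95th percentile as a vertical line. Clock stayed between 30.5 and 47.5 FPKM, while Dbp reached from 8.67 to 85.8.

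The spread of the 9 genes was set beside that of all genes kept, as a description. On the log2(FPKM + 1) scale the median gene had an SD of 0.24, and the 5th and 95th percentiles of the SD were 0.11 and 0.90. By this SD, Nr1d1 had the widest spread of the 9 (0.61, above 88.5% of genes). Dbp (0.59, above 87.6%), Per1 (0.56, above 86.1%) and Per2 (0.51, above 83.3%) followed. Arntl (0.43), Per3 (0.41), Cry1 (0.40) and Nr1d2 (0.39) lay above 73.8% to 77.4% of genes. Clock had an SD of 0.088, above 1.35% of genes. The order depends on the measure. By coefficient of variation of FPKM, Dbp came first (53.9%, above 83.7% of genes) and Nr1d1 second (44.2%, above 78.5%). On that measure Per2 lay above 75.5% of genes, Per1 above 70.8% and Clock above 1.26%. Arntl, Per3, Cry1 and Nr1d2 lay above 61.2% to 69.8%. Between the 5th and 95th percentile of samples, Nr1d1 differed 4.12-fold, Dbp 3.99-fold, Per2 3.66-fold, Per1 3.60-fold, Arntl 2.59-fold and Clock 1.21-fold.

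Depth did not limit these spreads equally. The libraries held 2139163 to 6248214 reads in genes, with a median of 4602134. At the median, Clock rested on 1668 reads, Per1 on 843, Nr1d2 on 600, Per3 on 542, Arntl on 476 and Cry1 on 74, with Nr1d1, Per2 and Dbp between these last 2. Poisson counting error at these depths came to 15.7% of the log2 variance of Clock and 12.9% of that of Cry1, and to 0.92% to 3.62% for the other genes; it covers counting error only. Pearson's r of a gene's log2 level with log2 reads lay between -0.19 (Nr1d2, Clock) and 0.18 (Cry1).

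The central comparison asked how the activating arm and its targets went together across samples. With limma on log2(FPKM + 1), Arntl as the only term and Benjamini-Hochberg adjustment over 16130 genes, all 8 other clock genes went with Arntl, where 43.3% of all genes did so at an adjusted p under 0.05. Clock and Cry1 rose with Arntl, as did 22.9% of all genes, and the other 6 fell, as did 20.4%. The share of genes called was high, so sizes separate the clock genes better than calls. Their median absolute slope was 0.69 log2 units per log2 unit of Arntl, against 0.056 over all genes. Slopes grow with a gene's spread, and, Clock apart, these genes had SDs of 0.39 to 0.61 against 0.24 for the median gene. Absolute r with Arntl, which is scaled to each gene's spread, was 0.27 (Per1) to 0.86 (Dbp), against a median of 0.096 over all genes. Measurement noise lowers r, more so where it is a larger share of a gene's variance, and r was not corrected for it.

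Dbp fell most steeply. Its level dropped by 1.19 log2 units for each log2 unit of Arntl (SE 0.035, limma adjusted p = 3.15e-119), and it ranked first of all 16130 genes by the size of the test statistic. In the sample with the least Arntl (7.71 FPKM) Dbp stood at 80.1 FPKM, and in the sample with the most (49.6 FPKM) it stood at 14.4. Pearson's r between the 2 genes was -0.86 and Spearman's rho -0.81, both with a permutation p of 1e-05, the smallest that 100000 permutations can give. Leaving out the 2 samples whose Arntl lay farthest from its median gave an r of -0.86 as well. Within the 3 blocks of title numbers r was -0.86, -0.89 and -0.60, in block order.

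The receptor genes and Per3 followed. Nr1d2 changed by -0.70 per log2 unit of Arntl (SE 0.029, limma adjusted p = 9.39e-80) and came at rank 4 of all genes. Per3 changed by -0.71 (SE 0.031, adjusted p = 2.66e-71) and at rank 5, and Nr1d1 by -0.93 (SE 0.054, adjusted p = 2.54e-47). Per2 changed by -0.68 (SE 0.048, adjusted p = 1.41e-34). The 3 samples with the least Arntl had 36.4 to 61.99 FPKM of Nr1d1, and the 3 with the most had 6.80 to 13.5.

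Cry1 went the other way from the Per genes, with a slope of 0.59 (SE 0.036, limma adjusted p = 3.70e-44). Its r with Arntl was 0.63 (rho 0.71), and its r with Nr1d2, whose protein is known to repress both Cry1 and Arntl, was -0.74. Within the blocks, r of Cry1 and Nr1d2 was -0.83, -0.75 and -0.63. Clock rose with Arntl by 0.064 log2 units (SE 0.0097, adjusted p = 4.30e-09), a slope smaller than that of any other clock gene. Its r with Arntl was 0.31, and within block 1 (adjusted p = 0.624) and block 3 (adjusted p = 0.0656) the slope did not pass the test.

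Per1 had a modest slope on Arntl of -0.36 (SE 0.062, limma adjusted p = 2.47e-07) and ranked 929th of all genes by its test statistic. Within blocks its slope was -0.29 (adjusted p = 0.894), -0.36 and -1.51, and the difference between these slopes passed a limma F test chosen after the data were seen (adjusted p = 0.000222, where 3.91% of all genes passed). Block 3 thus had the steepest relation of Per1 with Arntl, over an Arntl range of 21.4 to 48.95 FPKM. Cry1 was the only other clock gene past that test (adjusted p = 0.028), with slopes of 0.60, 0.53 and 1.03. Within blocks, 6, 8 and 7 of the 8 genes passed the test on Arntl, in block order, against 0.0868%, 27.9% and 17.2% of all genes.

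Among all 36 pairs of the 9 genes, 32 had an r of more than 0.096 in size, the value at which an unadjusted two-sided p reaches 0.05 with this many samples, and so did 56.5% of all pairs of the 16131 genes. Of the 36 pairs, 20 had an r above 0.4 in size, where 6.55% of all pairs did; this limit was chosen after the data were seen. Grouping the genes by the sign of their r with Arntl put Arntl, Cry1 and Clock on one side and the 3 Per genes, Dbp, Nr1d1 and Nr1d2 on the other. Of the 28 pairs that do not involve Arntl, 27 had the sign that this grouping gives, the exception being Clock with Per1 (r = 0.0012, p = 0.98). Within the blocks 27, 28 and 26 of the 28 did so. The grouping was drawn from these same samples. Large r values with Arntl also partly fix the signs among the other pairs, so these counts are not a separate check. The strongest relations on the opposite side were Per3 with Dbp (r = 0.83, rho = 0.83), Nr1d1 with Nr1d2 (r = 0.83, rho = 0.84), Dbp with Nr1d2 (r = 0.79, rho = 0.79) and Per3 with Nr1d1 (r = 0.76, rho = 0.75).

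Per1 stood apart from its side. Its r was 0.063 with Dbp (p = 0.201), 0.054 with Nr1d1 (p = 0.269) and 0.13 with Nr1d2. Within the blocks, r with Dbp was 0.13 (p = 0.425), 0.16 (p = 0.0161) and 0.026 (p = 0.756), and with Nr1d1 0.16 (p = 0.331), 0.14 (p = 0.0333) and -0.0047 (p = 0.956). With Per2 it was 0.62 (rho 0.63), and 0.74, 0.59 and 0.61 within the blocks. Per2 in turn had r of 0.48 with Per3 and 0.45 with Dbp, but 0.30 with Nr1d2 and 0.24 with Nr1d1. Within the blocks its r with Per3 was 0.70, 0.60 and 0.26, and with Dbp 0.56, 0.63 and 0.22. With Nr1d1 it was 0.40, 0.36 and 0.043 (permutation p = 0.607 in block 3). In a limma fit with Per1 as the only term, added after the data were seen, 5 of the 8 other clock genes passed where 35% of all genes did, and Per2 had a slope of 0.56 (SE 0.035, adjusted p = 2.17e-42). Against Dbp as the only term, 7 of the 8 passed where 32.3% of all genes did; Per1 did not (slope 0.059, SE 0.046, adjusted p = 0.346).

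Principal components of the 9 standardized genes give the same pattern as loadings. The first held 56.1% of the variance, with loadings of 0.40 for Arntl and 0.34 for Cry1 against -0.41 for Dbp, -0.40 for Per3, -0.39 for Nr1d2 and -0.38 for Nr1d1. The second held 16.3% and was led by Per1 (-0.66) and Per2 (-0.61). The third held 12.1% and was led by Clock (0.80). These components describe the members' own correlations and carry no test.

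**Figure D2:**
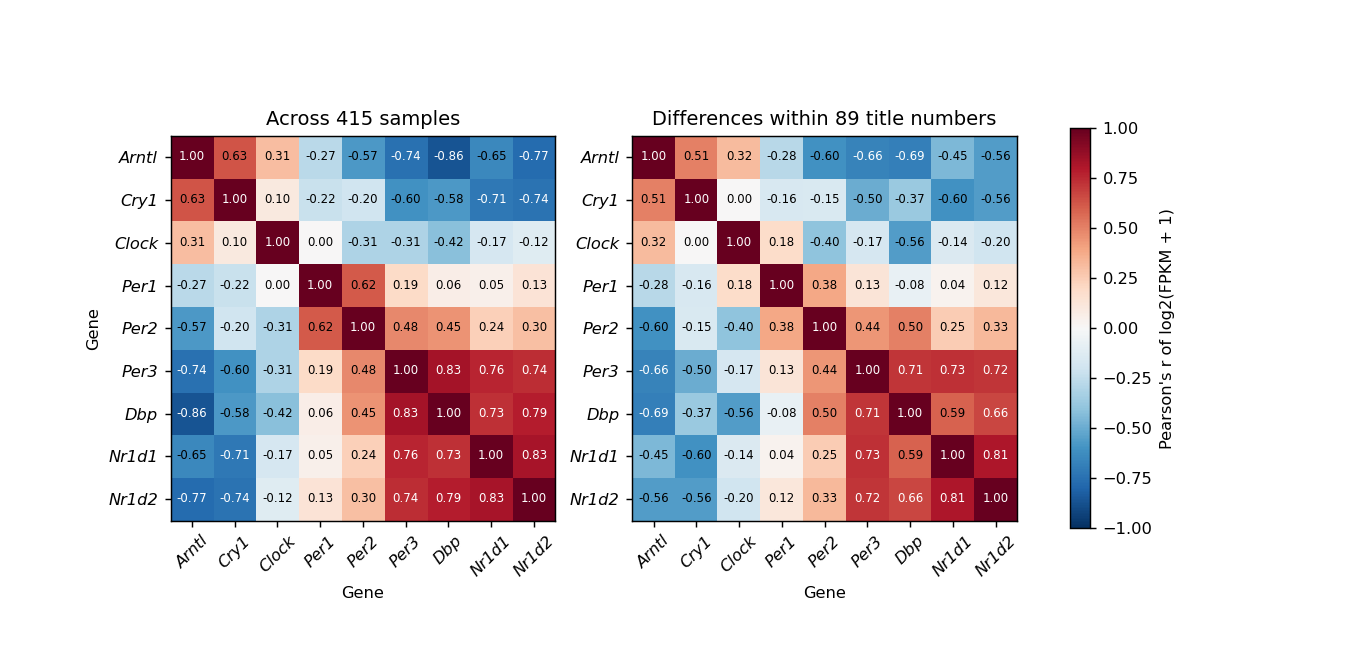
Pearson's r of log2(FPKM + 1) for each pair of clock genes across all samples (left), with red for positive and blue for negative r. On the right is r for differences between samples that share a title number (89 numbers), taken without subtracting the mean difference. Arntl and Dbp have r of -0.86 on the left and -0.69 on the right, and Per1 is pale with Dbp and Nr1d1 in both.

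The pattern was also present between samples with the same title number. For each of the 89 shared numbers, the difference between the first 2 samples was taken, which removes whatever such samples have in common. The r of differences was computed without subtracting their mean, so it is not Pearson's r. Its p-values came from random sign flips of the differences. Arntl and Dbp differences had an r of -0.69 (sign-flip p = 2e-05), Nr1d1 and Nr1d2 0.81, Per3 and Nr1d1 0.73, and Per1 and Per2 0.38 (p = 0.00047). Of the 36 pairs, 34 had the sign of the grouping above, which was drawn from all samples, these included. An r above 0.4 in size was found for 19 of the 36, where 6.86% of all pairs of genes had one. Clock with Arntl had an r of 0.32 with p = 0.0647. Means over the shared numbers gave Pearson's r of -0.86 for Arntl and Dbp and 0.64 for Per1 and Per2. This comparison was chosen after the data were seen.

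The relations with Arntl were not straight lines. A square of the Arntl level, added to the fit after the data were seen, passed for 6 of the 8 genes, where 5.98% of all genes passed (limma, Benjamini-Hochberg). Nr1d2 (coefficient -0.37, SE 0.034, adjusted p = 2.27e-19) and Cry1 (0.44, SE 0.044, adjusted p = 5.25e-18) ranked first and second of all genes. Nr1d1 (-0.43, adjusted p = 6e-06), Per3 (-0.24, adjusted p = 1.65e-05), Per1 (-0.38, adjusted p = 0.000994) and Dbp (-0.17, adjusted p = 0.0112) also passed. A negative square means that the gene fell faster at high Arntl than at low Arntl, and the positive square of Cry1 means that it rose faster there. For Per2 (-0.12, adjusted p = 0.266) and Clock (-0.018, adjusted p = 0.409) no curve was detected.

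**Figure D3:**
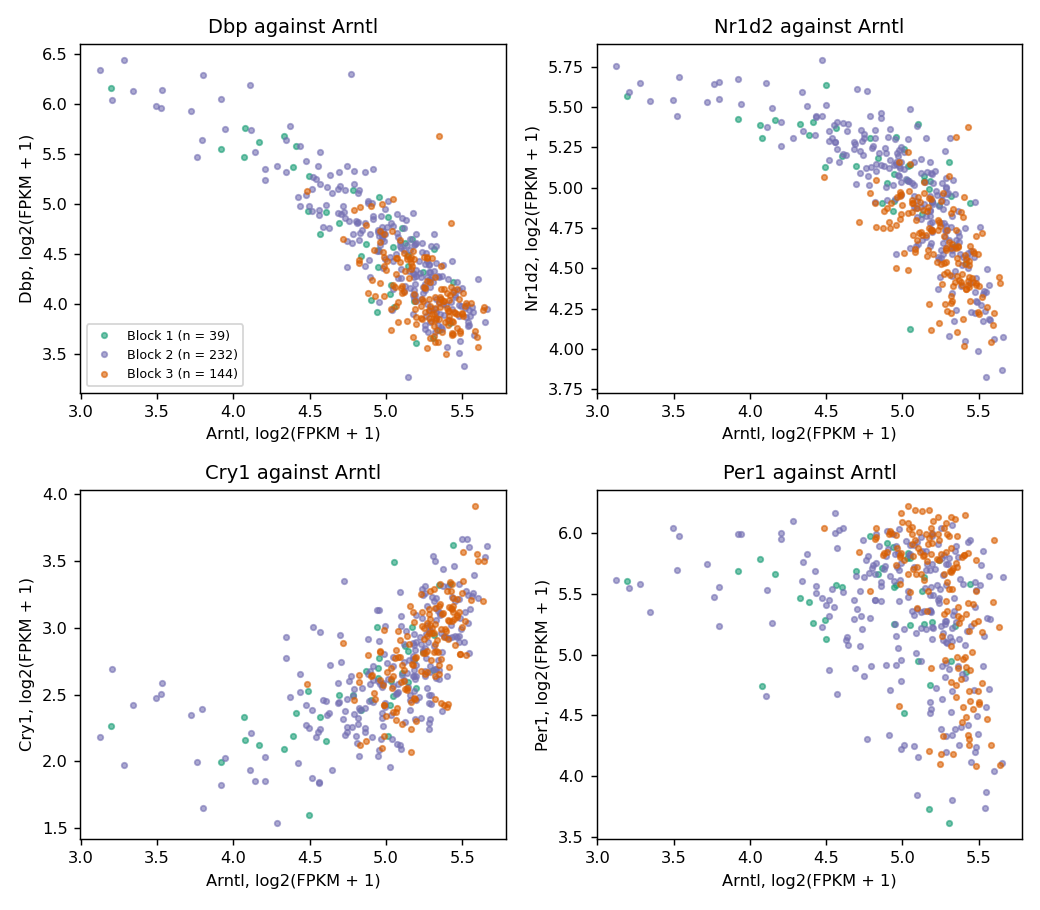
Log2(FPKM + 1) of Dbp, Nr1d2, Cry1 and Per1 against that of Arntl, 1 point per sample, coloured by block of title numbers (9.40%, 55.9% and 34.7% of samples). Dbp declines over the whole range of Arntl (r = -0.86), Nr1d2 and Cry1 bend at high Arntl, and Per1 scatters widely where Arntl is high.

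Genes outside the 9 with a pattern like that of Arntl could be given by identifier only. The highest r over all samples belonged to ENSRNOG00000011668 (0.84, with 0.80, 0.86 and 0.61 within blocks) and ENSRNOG00000013408 (0.83). The lowest belonged to ENSRNOG00000019383 (-0.74) and ENSRNOG00000042717 (-0.55, at a median of 9 reads). Absolute r with Arntl above 0.4 was found for 94 genes, or 0.583%, while 6.55% of all pairs of genes had an r of that size. Among the 10 genes nearest to each clock gene by absolute r, the other clock genes held 5 places for Per3, Cry1, Nr1d1 and Nr1d2, 4 for Arntl and Dbp, 1 for Per2 and 0 for Clock and Per1. For Per1 the nearest gene of all had r of 0.88, and Per2 came 46th.

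The next comparison asked whether the clock genes drifted along the title numbers. By block, in order, the median of Arntl was 29.8, 33.3 and 37.6 FPKM, and that of Cry1 was 4.85, 5.22 and 6.09. The medians of 4 of the 6 genes on the opposite side went down from block to block: Dbp had 23.2, 22.2 and 15.5, Nr1d1 33.1, 26.8 and 18.8, Nr1d2 34.1, 31.4 and 23.96, and Per3 20.3, 19.55 and 16.4 FPKM. Those of Per2 (10.07, 8.87 and 10.16 FPKM) and Per1 (46.02, 42.6 and 51.03 FPKM) did not. Block ranges overlapped for every gene. Clock had medians of 38.98, 38.2 and 38.3 FPKM.

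Against the rank of the title number, scaled from 0 at the lowest to 1 at the highest, 6 of the 9 genes had a trend by limma with Benjamini-Hochberg adjustment, where 61.3% of all genes did. The share is near the background. The median absolute change was 0.43 log2 units over the range, against 0.13 over all genes. These sizes are not scaled to spread, and the 9 genes had a median SD of 0.43 against 0.24 over all genes. Nr1d2 fell by 0.77 (SE 0.055, adjusted p = 5.93e-33) and ranked second of 16131 genes. Dbp fell by 0.97 (SE 0.088, adjusted p = 1.24e-22), Nr1d1 by 0.86 (SE 0.095, adjusted p = 1.73e-16) and Per3 by 0.40 (SE 0.066, adjusted p = 1.17e-08). Arntl rose by 0.67 (SE 0.065, adjusted p = 9.55e-21) and Cry1 by 0.43 (SE 0.065, adjusted p = 7.72e-10).

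Per1 (0.18, SE 0.094, adjusted p = 0.0869), Per2 (0.028, adjusted p = 0.796) and Clock (-0.0039, adjusted p = 0.835) had no straight trend. A natural spline of the rank did pass for these 3 genes (limma F test, adjusted p = 0.0175, 2.51e-05 and 5.48e-06), where it passed for 75.1% of all genes. The block F test passed for the same 6 genes as the straight trend and for 53% of all genes. Median reads per sample also differed between the blocks, 4409766, 4567750 and 4789736. With log2 reads as a covariate the 6 trends still passed, at 0.67 for Arntl and -0.75 for Nr1d2.

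Within block 2, 7 of the 9 genes had a trend, where 56.6% of all genes did, with Per2 added to the 6 (-0.70, SE 0.21, limma adjusted p = 0.00203, per full range of ranks). Nr1d2 changed by -1.49 (SE 0.13), Arntl by 1.38 (SE 0.17) and Dbp by -1.68 (SE 0.23). Within block 3 none of the 9 passed, where 6.53% of all genes did, and within block 1 none passed out of any gene (limma, 0 genes, with 1526 at an unadjusted p under 0.05), so the trends of the 6 genes are not shown within those blocks. Slopes differed between blocks for Arntl, Dbp, Nr1d2 and Per1 in a limma F test added after the data were seen, where 27.7% of all genes passed.

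**Figure D4:**
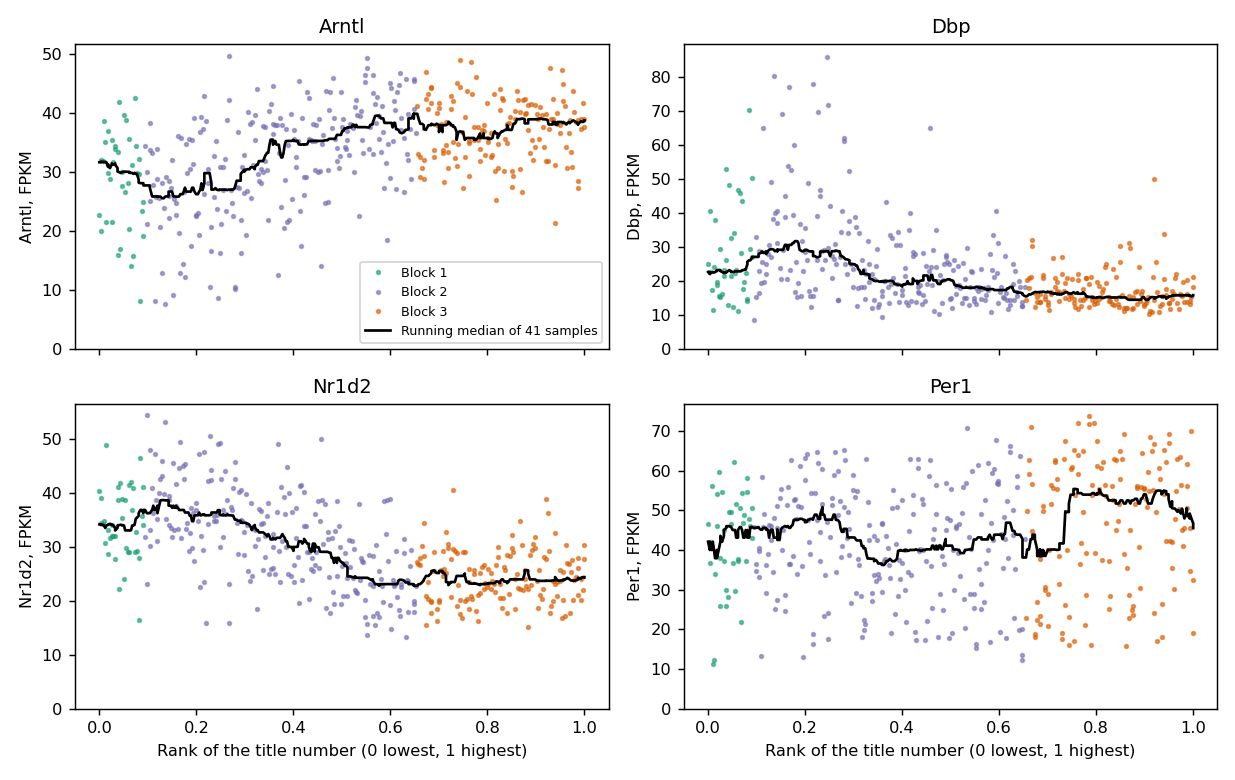
FPKM of Arntl, Dbp, Nr1d2 and Per1 against the rank of the title number, 1 point per sample coloured by block, with a running median of 41 samples as a black line. Arntl rises and Dbp and Nr1d2 fall along block 2, and the block medians of Dbp are 23.2, 22.2 and 15.5 FPKM.

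The tails of the distributions moved with the blocks as well. Samples under the 10th percentile of Arntl (22.1 FPKM) numbered 10 in block 1 (25.6% of its samples), 31 in block 2 (13.4%) and 1 in block 3 (0.69%). Samples above the 90th percentile of Dbp (37.8 FPKM) numbered 9 (23.1% of the block), 32 (13.8%) and 1 (0.69%). Those above the 90th percentile of Nr1d2 (40.7 FPKM) numbered 8 (20.5%), 34 (14.7%) and 0. Per1 was different, with 0, 15 (6.47%) and 27 (18.75%) samples above its 90th percentile (62.7 FPKM). The SD of Arntl on the log2 scale was 0.48, 0.48 and 0.21 by block, and that of Dbp 0.64, 0.62 and 0.37. Spreads of Per1 were 0.53, 0.54 and 0.59.

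A last comparison asked whether samples that share a title number had like levels of the clock genes. Resemblance is given as an intraclass correlation over all pairs with a shared number, which is 1 for identical samples and about 0 for unrelated ones. For Per1 it was 0.73, and 2 of 16131 genes had a higher value. It was 0.63 for Arntl (37 genes higher), 0.59 for Nr1d2, 0.52 for Dbp, 0.50 for Per2, 0.47 for Per3, 0.45 for Nr1d1, 0.35 for Cry1 and -0.0047 for Clock. The median over all genes was 0.23 and the 95th percentile 0.50. An F test over title numbers (limma, Benjamini-Hochberg) passed for 8 of the 9 genes, where 57.5% of all genes passed, with adjusted p = 1.56e-14 for Per1, 1.85e-10 for Arntl and 0.564 for Clock.

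Per1 in such pairs differed by a median of 1.17-fold, and by 1.38-fold between neighbouring samples with different title numbers. For Arntl the values were 1.11-fold and 1.24-fold. Neighbouring samples with different numbers had resemblances of 0.021 for Per1 and 0.053 for Per2, but 0.40 for Nr1d2, 0.30 for Nr1d1, 0.30 for Dbp, 0.26 for Arntl, 0.22 for Per3 and 0.16 for Cry1, around an all-gene median of 0.12. Per1 thus had a high value within a title number and a value near 0 between neighbours, and Per2 (0.50 and 0.053) had the same contrast in smaller form. The 6 genes Nr1d2, Nr1d1, Dbp, Arntl, Per3 and Cry1 had values above the all-gene median in both. The difference between the 2 kinds of pair was not tested. Within blocks Per1 had a resemblance of 0.72 (9 pairs), 0.80 (49 pairs) and 0.66 (47 pairs), and Arntl -0.31, 0.69 and 0.53. After a spline of the rank, fitted over all samples, was subtracted, the same 8 genes passed the F test. Per1 did so at adjusted p = 1.92e-14 and Arntl at 2.30e-05. That test did not count the degrees of freedom spent on the spline.

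**Figure D5:**
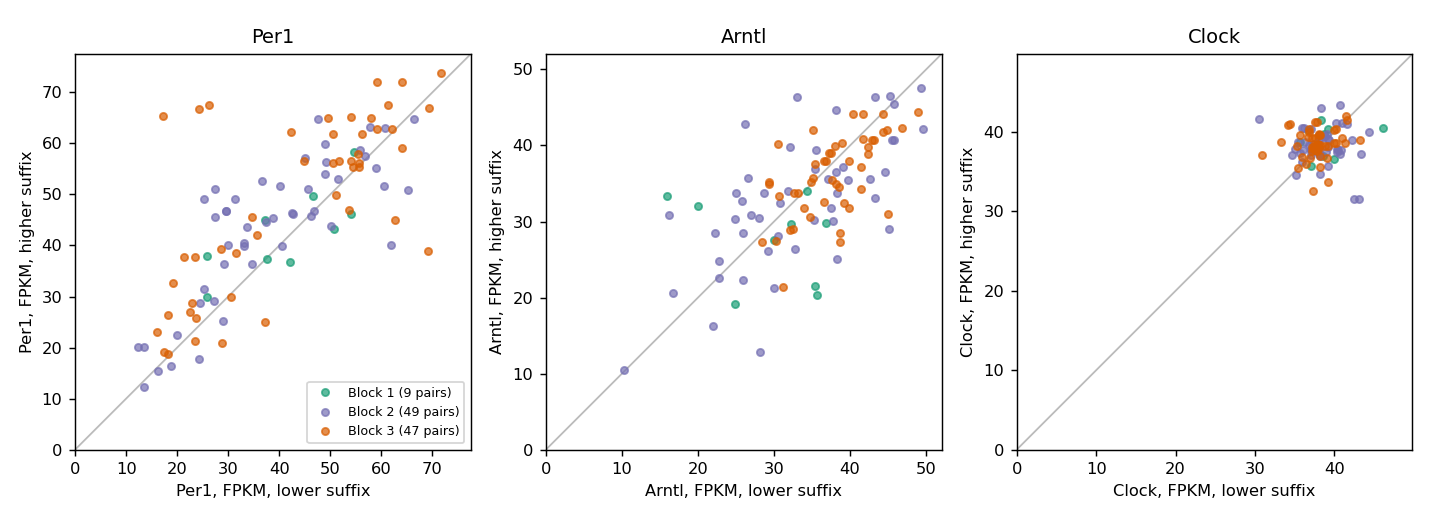
FPKM of Per1, Arntl and Clock in pairs of samples with the same title number (9, 49 and 47 pairs in blocks 1 to 3), the sample with the lower suffix on the x axis and that with the higher suffix on the y axis, coloured by block, with the line of equality in grey. Per1 pairs lie along the line (resemblance 0.73), and Clock pairs form a round cloud (-0.0047).

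The suffix of the title did not separate the clock genes. Between suffix 3 (42.2% of samples) and suffix 4 (42.9%), limma called 0 of the 9 genes and 0 of all 16131 genes at an adjusted p under 0.05, with 2.26% of genes at an unadjusted p under 0.05. Nr1d1 was the only clock gene among these, with medians of 21.4 FPKM for suffix 3 and 25.2 FPKM for suffix 4 (difference 0.14, SE 0.065, unadjusted p = 0.0347, adjusted p = 0.9999). Sequencing depth, by contrast, went with 70% of all genes, and 6 of the 9 passed in that limma fit, Arntl, Per2, Per3 and Cry1 upward and Clock and Nr1d2 downward, though Clock turned upward (0.0073) under quantile normalization. Under that scaling Per2, Per3 and Cry1 no longer passed.

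The extreme samples show the 2 sides together. The sample with the least Arntl, with title number 61172, had 7.71 FPKM of Arntl and 3.53 of Cry1, and high values of Dbp (80.1), Nr1d1 (61.99), Nr1d2 (53.1), Per3 (39.4) and Per2 (21.6). The sample with the most Arntl, with title number 62414, had 49.6 FPKM of Arntl and 11.3 of Cry1, and low values of Nr1d1 (6.80), Nr1d2 (15.8), Per3 (10.04) and Dbp (14.4). Per2 did not follow there, at 13.1 FPKM against a 75th percentile of 11.96 over all samples. Per1 was alike in these 2 samples, at 48.2 and 48.9 FPKM, but not in those next in order. There Per1 stood at 47.8 and 45.8 FPKM at the low end of Arntl, and at 16.2 and 16.1 FPKM at the high end. Samples that departed from the pattern were also found, and the 2 given here were chosen after their values were seen. In the sample with title number 62335 and suffix 3, Dbp (77.8) and Nr1d1 (59.7) were high at an Arntl of 26.2 FPKM, and Clock, at 30.5, was the lowest of all samples. The other sample of that number, with suffix 4, had 42.8 FPKM of Arntl, 15.7 of Dbp and 14.8 of Nr1d1. The sample with title number 64199 and suffix 4 had 39.8 FPKM of Arntl, 50.04 of Dbp and 50.96 of Nr1d1.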

How the data were processed

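Adipose RNA was extracted with Trizol and sequenced as single-end reads of 75 bp on an Illumina HiSeq instrument, per the labels' protocols. The submitters' processing notes name STAR, Picard, featureCounts and DESeq2, with no version or role; the genome build and annotation are not given in the sources used here. The values the authors deposited are FPKM. The table names no unit, and it was worked out from the values: dividing whole reads by an integer gene length (49 to 29464 bp, median 2065) and a factor for the sample gave each of them. Median-of-ratios size factors from the 13665 genes never at 0 matched these sample factors, with a largest relative difference of 2.22e-15. Whole reads were recovered for 100% of values within a tolerance of 0.001.

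FPKM were transformed to log2(FPKM + 1), and 16131 genes above 1 FPKM in at least 20% of samples were kept. Tests used limma 3.58.1 in R 4.3.3 with Benjamini-Hochberg adjustment over all genes tested at 0.05. Slopes are on the log2(FPKM + 1) scale and understate changes of low genes. Correlations among the 36 pairs used 100000 two-sided permutations of samples, or random sign flips for differences within title numbers, unadjusted. The columns not matched to a sample numbered 0. Tested on simulated data, each of the 5 kinds of fit recovered 100% of 200 changed genes among 16131. Each fit also called unchanged genes, from 7 (suffix 3 against suffix 4) to 15 (same-number differences). The rate of false calls in the real data was not tested.

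The 9 genes, the motifs and the other gene lists were chosen with earlier results of these data known, so they give no independent support. Text names the 9 genes and, by likeness to Arntl, the 2 genes with the highest and the 2 with the lowest r outside them. Further clock genes and cell type markers, by which the tissue would be checked, were not analysed here, since no table at hand pairs these identifiers with symbols. Alternatives were a pseudocount of 0.1, other filters, quantile normalization, and reads, block or a spline (5 degrees of freedom) as covariates. For same-number differences the spline was subtracted beforehand. Others were 1 sample per title number, values within blocks, blocks cut at gaps above 250, and voom on the recovered read counts. No count test was used as the main result.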

Additional observations from a re-analysis of the deposited data

Results flagged for a closer look

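The relation with Arntl differed between the 3 blocks of title numbers for 2 clock genes, by a limma F test of the difference itself that was added after the data were seen. Per1 had an adjusted p of 0.000222, with slopes of -0.29, -0.36 and -1.51 in block order. Cry1 had an adjusted p of 0.028, with slopes of 0.60, 0.53 and 1.03. The range of Arntl differed between the blocks too (8.17 to 42.5, 7.71 to 49.6 and 21.4 to 48.95 FPKM), and its part in the difference was not tested. The trend along the title numbers differed between the blocks for 4 clock genes in a test of the same kind, with an adjusted p of 0.000462 for Arntl, 0.044 for Per1, 0.0168 for Dbp and 1.41e-05 for Nr1d2. Arntl changed by 1.38 within block 2 and 0.030 within block 3, and Nr1d2 by -1.49 and 0.072, per full range of ranks.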

How the results depend on the processing

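The labels give 1 group and no replicate numbers shared across groups; samples of a title number could be paired between suffixes 3 and 4, and that fit, with the title number as a block, called 0 genes, as did the fit without it. Of the results on single genes and pairs, 900 kept direction and side of the threshold, 52 no longer passed, 11 newly passed, 29 changed sign and 7 spreads moved by more than the standard error of an SD. Of the counts of genes and the summary of spread, 72 stayed within 1.5 times (for spread, within that standard error) and 13 did not, and the cause was not tested. Genes going with Arntl numbered 3351 with the spline and 14, 4498 and 2768 within blocks 1, 2 and 3, against 6978. Genes going with Dbp numbered 18, 3373 and 2092 within the blocks, against 5203, and genes going with Per1 1885 and 2642 within blocks 2 and 3, against 5652. Genes with a trend numbered 0 within block 1 and 1053 within block 3, against 9885. The median SD of the 9 genes was 0.47 with a pseudocount of 0.1 and 0.45 with 1 sample per title number, against 0.43.

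Sign changes of the slope on Per1 were those of Clock (-0.0013 with 1 sample per title number, -0.00034 with block as a covariate, -0.036 and -0.0100 within blocks 1 and 2), Nr1d1 (-0.0037 within block 3) and Nr1d2 (-0.0044 within block 1). Trends that changed sign, per full range of ranks, were those within block 1 of Arntl (-4.00), Per3 (3.45) and Dbp (4.70), and within block 3 of Clock (0.15), Per3 (0.032) and Nr1d2 (0.072). Block 1 covered only ranks 0 to 0.091, so its slopes extend far beyond its samples, and none of these trends passed. The trend also changed sign within block 2 for Per1 (-0.29) and Per2 (-0.70, the only sign change in a trend that then passed, limma adjusted p = 0.00203). Quantile normalization turned the trends of Clock (0.026) and Per2 (-0.017), and reads as a covariate those of Clock (0.013) and Per2 (-0.045). Between suffixes, the title number as a block turned Per1 (0.0038) and Per2 (0.0013). In the fit on reads, quantile normalization turned Clock (0.0073), whose fall with reads thus depends on the scaling, and block as a covariate turned Dbp (0.15). Correlations that changed sign were Clock with Per1 (-0.20 and -0.059 within blocks 1 and 2, -0.0082 with 1 sample per title number, -0.058 for means of shared numbers), Per1 with Dbp (-0.077 for differences), Per1 with Nr1d1 (-0.0047 within block 3) and Per1 with Nr1d2 (-0.0081 within block 1). The trends of Arntl, Dbp, Nr1d2 and the other 3 genes passed in every alternative over all blocks. Depth gave Cry1 the fewest reads of the 9, a median of 74.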

Other observations

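Within block 1, with 39 samples, 5650 genes went with Per1 at a limma adjusted p under 0.05 (35% of genes), while 14 went with Arntl and 18 with Dbp; the 2 samples with the least Per1 of all (11.2 and 12.2 FPKM) lie in that block, and their part in the count was not tested. Clock, the most even of the 9 genes, had an absolute r above 0.4 with 651 genes (4.04%). That was more than Per1 (1.85% of genes) or Nr1d2 (1.79%), and 14 genes for Cry1 was the fewest. All these shares lay under that of all pairs of genes, 6.55%.

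Of the 8 title numbers on 3 samples, a pair chosen after their values were seen shows the range of likeness. Number 63032 had Arntl at 45.7, 45.5 and 40.7 FPKM, Per1 at 13.6, 12.3 and 20.1 FPKM and Dbp at 12.8, 12.8 and 13.9 FPKM. Number 60444 had Arntl at 38.2, 25.03 and 33.8 FPKM and Dbp at 22.9, 28.8 and 16.6 FPKM, while Per1 stood at 33.1, 40.5 and 39.9 FPKM.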
